A study of Rattus norvegicus with 72 samples.

Results

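Fibroblasts of the lung are told apart by a small set of genes, and 10 of them were followed here in whole lung RNA: the alveolar genes Tcf21, Npnt, Wnt2 and Fgf10, the adventitial genes Pi16, Dcn, Lum and Fmod, and the receptor genes Pdgfra and Pdgfrb. They were taken by symbol from a table of read counts for 30042 gene symbols, where 9 of the 10 have a row, and Npnt is not analysed here. The lungs came from 72 male Sprague-Dawley rats, 1 library per animal, in 12 groups of 6. Rats breathed diesel exhaust particles at 1000 ug/m3 (animals whose titles carry the letter H) or at 200 ug/m3 (letter L), or filtered air in an H set and in an L set. Exposure lasted 6 hours a day for 4 days, and lungs were taken 1, 7 or 27 days later. What H and L stand for is not stated in the labels. Each exposed group was set against the air group of its own letter and day. The samples are pieces of whole lung, so fewer cells of a type and less RNA per cell cannot be told apart.

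Alveolar fibroblasts lie in the walls of the air spaces beside the epithelium and send it growth signals. In mouse lung Tcf21, a transcription factor, marks lipid-bearing fibroblasts, Wnt2 encodes a signal that feeds beta-catenin activity in the epithelium, and Fgf10 encodes a growth factor read by the receptor FGFR2. Adventitial fibroblasts sit in the cuffs around airways and large vessels, where Pi16, a peptidase inhibitor gene, marks them in mouse, and they lay down decorin (Dcn), lumican (Lum) and fibromodulin (Fmod), small leucine-rich proteoglycans that bind collagen fibrils. Pdgfra is the receptor gene carried by most lung fibroblasts, and Pdgfrb is carried by pericytes and smooth muscle as well.

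Library totals were 1042336 to 2397971 counts at day 1, 3471134 to 6279763 at day 7 and 3761631 to 6520180 at day 27, leaving aside 3 shallow libraries, all in 1000 ug/m3 groups. These were animal 037 of day 7 with 105453 counts, and animals 024 and 045 of day 27 with 439393 and 149004 counts. A count of 0 allows up to 25.9 CPM (counts scaled to a common library total) in animal 037, 6.69 CPM in animal 024 and 18.7 CPM in animal 045, by counting error alone. All levels are CPM scaled by TMM factors. The 6 type II pneumocyte markers, Sftpc among them, summed to between 9511 and 22024 CPM in every library, and none was at 0 across a group.

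Of the 9 genes, Fmod had the widest range of group means. Its group means ran over 4.30-fold, between 62.8 CPM in 1000 ug/m3 lungs of day 1 and 14.6 CPM in 200 ug/m3 lungs of day 27. The other members ran over 1.36-fold (Pdgfrb) to 2.09-fold (Fgf10). Over the 69 libraries of at least 500000 counts, the coefficient of variation of the Fmod group means was 53.4%, and that within groups was 35.5%, where counting alone gives 12.5%. Fgf10 varied within groups by 38.5%, close to the 34.9% that counting gives at its median of 11 counts a library. Wnt2 varied by 17.5% within groups against 16.1% from counting. The scatter of these 2 signal genes between animals was thus close to counting error. Pdgfrb and Pdgfra were the steadiest, at 9.83% and 10.7% within groups. Pi16 varied by 31.9% and Dcn by 22.4%, both well above the 11.8% and 6.12% from counting.

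**Figure D1:**
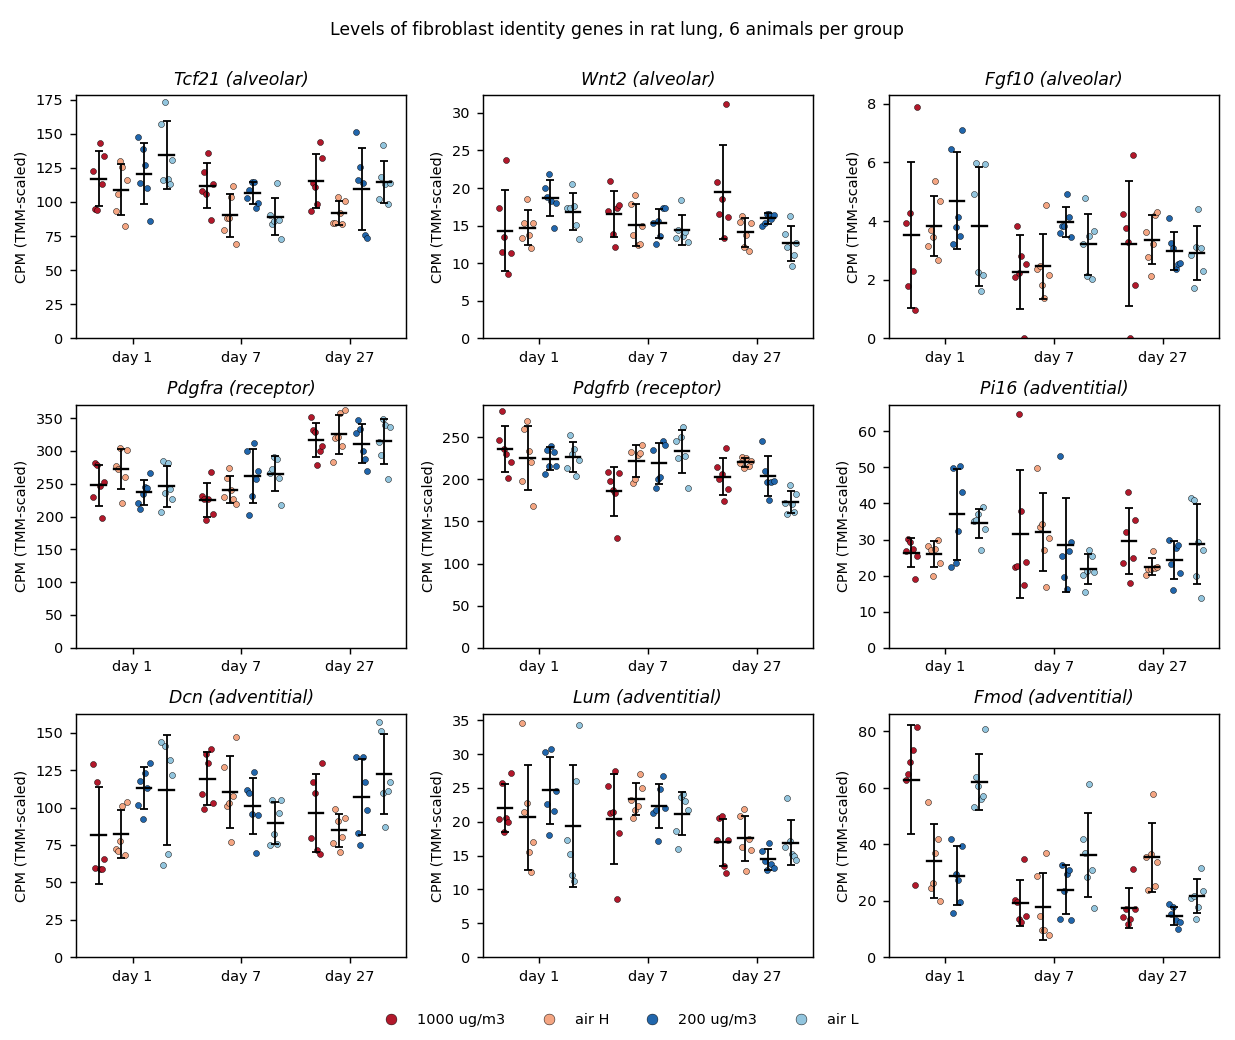
Level of each of the 9 genes (TMM-scaled CPM, linear axis from 0) in the lungs of the 12 groups, by day after exposure. Points are animals, bars are the mean and SD of 6 animals; Fmod spreads most between groups, and Pdgfra is highest in all 4 groups of day 27.

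Fmod and Lum encode proteoglycans of the same family, yet Lum group means ran over only 1.71-fold, so the start regions of both are shown. They are the 250 bases before and 50 bases after the gene start, from RefSeq on the build GRCr8, which differs from the build of the counts (Rnor_6.0). Capitals mark a GC box (GGGCGG, either strand) or a TATA box (TATAAA, either strand).
Fmod: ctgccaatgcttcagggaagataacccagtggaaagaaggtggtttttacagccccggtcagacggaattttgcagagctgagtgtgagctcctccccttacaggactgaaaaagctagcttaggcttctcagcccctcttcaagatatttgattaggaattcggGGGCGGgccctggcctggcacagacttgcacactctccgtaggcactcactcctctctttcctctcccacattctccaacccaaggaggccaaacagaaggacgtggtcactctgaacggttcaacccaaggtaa
Lum: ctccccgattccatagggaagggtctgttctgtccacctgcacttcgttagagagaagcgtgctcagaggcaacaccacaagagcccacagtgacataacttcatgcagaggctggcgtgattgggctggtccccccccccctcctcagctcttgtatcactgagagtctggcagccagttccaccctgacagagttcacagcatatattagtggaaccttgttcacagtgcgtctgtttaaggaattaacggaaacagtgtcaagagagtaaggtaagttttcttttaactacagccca
The Fmod window lies at chr13:48045317-48045616 on the plus strand and holds 1 GC box, a sequence found in 33.1% of 33469 rat start regions of that length. The Lum window lies at chr7:34245456-34245755 on the plus strand and holds neither motif. A TATA box is present in 14.2% of all such windows. An E-box (CANNTG), the sequence class bound by factors of the TCF21 family, was found 1 time in the Lum window and 0 times in the Fmod window, against 72.1% of all windows. In the same assembly Fmod lies between Prelp and Btg2, and Lum lies between Dcn and Kera.

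After exposure, none of the 9 genes passed the test in any of the 6 comparisons with air. The test was edgeR's quasi-likelihood test with Benjamini-Hochberg adjustment over all genes, called at an adjusted p under 0.05. At 1000 ug/m3, 0 of 8 members were called at day 1, 0 of 9 at day 7 and 0 of 9 at day 27, where 0%, 0% and 0% of all tested genes were called. At 200 ug/m3, 0 of 8, 0 of 9 and 0 of 9 were called, where 0%, 0.00698% and 0% of all genes were. At an unadjusted p under 0.05, the members counted 1, 2 and 3 for 1000 ug/m3 at days 1, 7 and 27, where 3.41%, 4.39% and 7% of all genes had such a p. For 200 ug/m3 they counted 1, 1 and 3, where 6.02%, 5.71% and 9.69% of all genes did. With DESeq2 the count was 1 (Fmod) for 200 ug/m3 at day 1, where DESeq2 called 0.00813% of all genes, and 1 (Fmod) for 1000 ug/m3 at day 27, where it called 0.0406%. It was 0 in the other 4 comparisons, where DESeq2 called 0% to 0.0349% of genes. With limma-voom it was 0 in all 6, where 0% to 0.00698% of genes were called. The median log2 fold change of the members lay between -0.07 and 0.10 across the 6 comparisons, and that of all tested genes lay within 0.0013 of 0.

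Fmod at day 1 was high in 1000 ug/m3 lungs and low in 200 ug/m3 lungs relative to their own air sets. The 1000 ug/m3 lungs ranged from 25.7 to 81.5 CPM with a median of 66.9, and the air H lungs ranged from 20 to 55 CPM with a median of 31.6. Of the 6 exposed animals 5 lay above all 6 air H animals, and only animal 029, at 25.7 CPM, lay among them. The log2 fold change was 0.94 (SE 0.25, edgeR adjusted p = 1, unadjusted p = 0.00102). The 200 ug/m3 lungs ranged from 15.5 to 41.9 CPM with a median of 28.4, and the air L lungs ranged from 53 to 80.6 CPM with a median of 58.8. No 200 ug/m3 animal reached the lowest air L animal, which is so for 0.203% of the 12304 genes tested, against 0.439% without overlap in either direction. The log2 fold change was -1.09 (SE 0.26, edgeR adjusted p = 0.554, DESeq2 adjusted p = 0.0425, with 0.0181 to 0.889 over all alternatives). In the other 5 exposed comparisons no member had ranges that did not overlap, where 0.219% (1000 ug/m3, day 1), 0.272% (1000 ug/m3, day 7), 0.412% (200 ug/m3, day 7), 0.569% (1000 ug/m3, day 27) and 0.346% (200 ug/m3, day 27) of all genes did.

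The effect of 1000 minus that of 200 ug/m3 on Fmod at day 1 was 2.03 on the log2 scale (SE 0.36, edgeR adjusted p = 0.0551). That was the second smallest p of 12304 genes, of which 1 gene (0.00813%) was called, and 0 of the 8 members were. Without animal 029 of the 1000 ug/m3 group the difference was 2.18 (adjusted p = 0.000538), without animal 001 of air H 2.2 (0.00704), and without animals 057 or 062 of the 200 ug/m3 group 2.18 (0.0242) and 2.14 (0.0255). Over all 24 libraries left out in turn, the adjusted p ran between 0.000538 and 0.169. DESeq2 and limma-voom called Fmod (adjusted p = 1.72e-05 and 0.00452), in fits that called 0.0163% and 0.00813% of genes. All 4 groups of day 1 enter this difference, and the air sets were themselves apart by value, without passing the test: air H minus air L was -0.91 on the log2 scale (SE 0.25, edgeR adjusted p = 0.0566). The exposed groups set directly against each other gave 1.12 for 1000 minus 200 ug/m3 (SE 0.26, adjusted p = 0.156).

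At day 27 Fmod was lower in exposed lungs of both doses by value, and in the 1000 ug/m3 comparison it had the smallest p of all 14761 genes tested without passing the threshold. The 1000 ug/m3 lungs ranged from 11.7 to 31.2 CPM with a median of 15.6, and the air H lungs ranged from 23.6 to 57.9 CPM with a median of 34.5. Of the exposed animals 5 lay below every air H animal, and the exception was the shallow library of animal 045, whose 31.2 CPM rest on 5 counts. The log2 fold change was -1.21 (SE 0.23, 95% interval -1.65 to -0.76, edgeR adjusted p = 0.138), and it was -1.22 without the 3 shallow libraries. All 5 tested mesothelial markers, genes of the lung's outer lining, were also lower by value there, with a median log2 fold change of -0.43 and 0 called. The 6 listed mesothelial markers summed to between 54.1 and 89.2 CPM in 1000 ug/m3 lungs and between 83.8 and 131 CPM in air H lungs, with Calb2 at 0 in both groups. Their part in the Fmod value was not tested. The summed cartilage markers, of a tissue rich in fibromodulin, stayed at or below 2.23 CPM in the exposed and 1.71 CPM in the air H lungs. The 200 ug/m3 lungs ranged from 10.1 to 18.7 CPM with a median of 14.3, and the air L lungs ranged from 13.6 to 31.7 CPM with a median of 21.4. All 6 of these exposed animals lay below the air L mean, at a log2 fold change of -0.54 (SE 0.22, adjusted p = 0.453). The air sets were themselves apart, with means of 35.4 CPM in set H and 21.6 CPM in set L. The exposed means were 17.4 CPM at 1000 ug/m3 and 14.6 CPM at 200 ug/m3.

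Day 7 lay between. The 1000 ug/m3 lungs ranged from 12.4 to 34.6 CPM with a median of 17, and the air H lungs ranged from 7.93 to 36.9 CPM with a median of 12.2, at a log2 fold change of -0.14 (SE 0.40). This log2 fold change ran from -0.29 to 0.17 over the 24 fits that left out 1 library, so its sign was not settled. The 34.6 CPM is the shallow animal 037 on 4 counts. Without it the exposed mean was 16.1 CPM, against 17.9 CPM in air H lungs. The 200 ug/m3 lungs ranged from 13.2 to 32.7 CPM with a median of 26.5, and the air L lungs ranged from 17.4 to 61.2 CPM with a median of 33.9, at -0.58 (SE 0.35). Both pairs overlapped widely. The effect of 1000 ug/m3 on Fmod at day 27 minus that at day 1, a contrast added after the values were seen, was -2.15 (SE 0.43, adjusted p = 0.0912), the smallest p of 14956 genes, of which 0% were called. DESeq2 and limma-voom called it (adjusted p = 0.0465 and 0.0356), in fits that each called 0.00669% of genes. Averaged over the 3 days, the effect of 200 ug/m3 was -0.74 (SE 0.17, adjusted p = 0.0724, where 0.0401% of genes and 0 of 9 members were called) and that of 1000 ug/m3 was -0.14 (SE 0.18, where 0% of genes and 0 of 9 members were called).

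**Figure D2:**
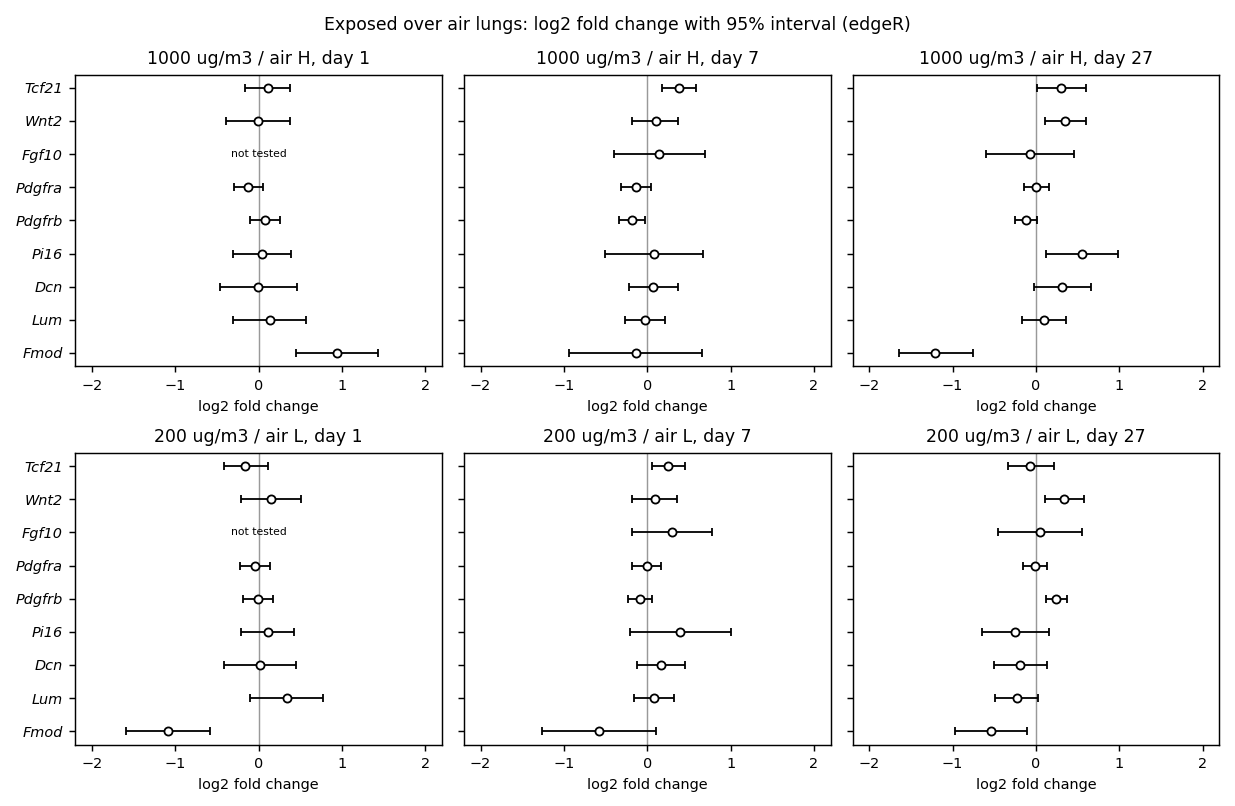
Log2 fold change of each gene in exposed over air lungs with its 95% interval, at 1000 ug/m3 (top) and 200 ug/m3 (bottom), by day. No point passes the adjusted threshold; Fmod lies at 0.94 and -1.21 for 1000 ug/m3 at days 1 and 27 and at -1.09 for 200 ug/m3 at day 1, and Fgf10 was too low to be tested at day 1.

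Among the alveolar genes, Tcf21 was higher by value at day 7 at both doses. It ranged from 86.6 to 136 CPM with a median of 110 in 1000 ug/m3 lungs, and from 69.2 to 112 CPM with a median of 88.1 in air H lungs. Of the 6 exposed animals 5 lay above the air mean, and the exception was the shallow animal 037, at 86.6 CPM on 10 counts. The log2 fold change of Tcf21 was 0.38 (SE 0.10, edgeR adjusted p = 1, unadjusted p = 0.000976). In 200 ug/m3 lungs it ranged from 95.9 to 115 CPM with a median of 106, and in air L lungs from 73.2 to 114 CPM with a median of 86.4, at 0.25 (SE 0.10, adjusted p = 0.785). All 6 of these exposed animals lay above the air L mean, while the ranges overlapped. At day 27 the values were 0.30 (SE 0.15) for 1000 ug/m3 and -0.07 (SE 0.14) for 200 ug/m3.

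Wnt2 was higher by value at day 27 at both doses and did not pass the test. The 1000 ug/m3 lungs ranged from 13.4 to 31.2 CPM with a median of 17.6, and the air H lungs from 11.6 to 16.3 CPM with a median of 14.5, at a log2 fold change of 0.35 (SE 0.12, edgeR adjusted p = 0.65). Both ends of the exposed range were shallow libraries, animal 024 at 13.4 CPM on 6 counts and animal 045 at 31.2 CPM on 5 counts, and the other 4 animals lay between 16.2 and 20.8 CPM. The 200 ug/m3 lungs ranged from 15 to 16.6 CPM with a median of 16.2, and the air L lungs from 9.65 to 16.3 CPM with a median of 12.4, at 0.34 (SE 0.12, adjusted p = 0.378). At the high dose 5 of 6 exposed animals and at the low dose 6 of 6 lay above their air mean. Averaged over all 6 comparisons, Wnt2 was 0.16 (SE 0.06, adjusted p = 0.839) and Tcf21 was 0.13 (SE 0.06, adjusted p = 0.961), in a contrast that called 0.0134% of genes and 0 of 9 members. The members ran from -0.44 to 0.16 in that contrast. The smallest edgeR adjusted p, which was neither that of Wnt2 nor that of Tcf21, was 0.587. Fgf10 had group means of 2.25 to 4.70 CPM. Its log2 fold changes at days 7 and 27 lay between -0.07 and 0.30, with standard errors of 0.24 to 0.28. Changes of that size could not be told from 0 at this depth, and only a change well above its standard error could pass the test. Fgf10 had 0 counts in the shallow animals 037 and 024.

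Of the receptor genes, Pdgfrb had its smallest exposure p at 200 ug/m3 and day 27. The 200 ug/m3 lungs ranged from 176 to 246 CPM with a median of 198, and the air L lungs from 159 to 193 CPM with a median of 172. All 6 exposed animals lay above the air L mean, at a log2 fold change of 0.24 (SE 0.06, edgeR adjusted p = 0.309). At 1000 ug/m3 and day 27 it was -0.12 (SE 0.07), and the effect of 1000 minus that of 200 ug/m3 was -0.36 (SE 0.09, adjusted p = 0.168, where 0% of genes and 0 of 9 members were called). Both air sets enter this difference, and they were themselves apart. The exposed means were 203 CPM at 1000 ug/m3 and 204 CPM at 200 ug/m3. The air means were 220 CPM in set H and 173 CPM in set L, the lowest of the 12 groups. At 1000 ug/m3 and day 7 Pdgfrb was -0.18 (SE 0.08), with 6 of 6 exposed animals below the air H mean, among them the shallow animal 037 at 130 CPM. Pdgfra, the other receptor gene, lay between -0.14 and 0 in all 6 comparisons, with standard errors of 0.07 to 0.09.

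Pi16 and Dcn, both adventitial, were higher by value in 1000 ug/m3 lungs of day 27. Pi16 ranged from 17.9 to 43.2 CPM with a median of 28.5 in those lungs, and from 20.1 to 26.9 CPM with a median of 21.9 in air H lungs, at a log2 fold change of 0.55 (SE 0.22, edgeR adjusted p = 0.663). Dcn ranged from 68.7 to 130 CPM with a median of 94.8, and from 70.1 to 98.7 CPM with a median of 85.6 in air H lungs, at 0.31 (SE 0.17, adjusted p = 0.739). Both exposed ranges enclosed the air ranges, with 5 of 6 animals above the air mean for Pi16 and 3 of 6 for Dcn. Their low ends were shallow libraries, animal 024 for Pi16 (8 counts) and animal 045 for Dcn (11 counts). Without animals 024 and 045 the exposed ranges began at 23.4 CPM for Pi16 and 79.6 CPM for Dcn, above the lowest air H animals. The exposed means were then 33.5 and 109 CPM. In the same comparison all 5 tested ciliated cell markers and all 5 tested club cell markers had positive log2 fold changes, with medians of 0.42 and 0.45, and 0 of them were called. The 5 ciliated markers summed to between 406 and 558 CPM in exposed lungs and between 372 and 444 CPM in air H lungs, none at 0 across a group. Their part in the Pi16 and Dcn values was not tested. Lum lay between -0.23 and 0.34 in the 6 comparisons, with standard errors of 0.12 to 0.23.

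The mean log2 CPM of the alveolar genes (Tcf21, Wnt2, Fgf10) minus that of the adventitial genes (Pi16, Dcn, Lum, Fmod) summarises the balance of the classes in each lung. At day 1 it averaged -1.18 in 1000 ug/m3 lungs and -0.85 in air H lungs, a difference of -0.33. It averaged -0.85 in 200 ug/m3 lungs and -1.11 in air L lungs, a difference of 0.26. At day 27 it averaged -0.66 in 1000 ug/m3 lungs against -0.93 in air H lungs and -0.58 in 200 ug/m3 lungs against -0.95 in air L lungs, differences of 0.27 and 0.37. At day 7 the differences were 0.06 and 0.22, the first of them -0.03 with a prior count of 0.5 in place of 2. Without the shallow libraries the differences of 1000 ug/m3 were 0.18 at day 7 and 0.23 at day 27. The pooled SD within groups was 0.31, so the differences of 1000 ug/m3 at day 1 and of 200 ug/m3 at day 27 exceeded 1 SD and the other 4 did not. This depended on the genes of lowest level in each class, Fgf10 and Lum. Without them the differences were -0.27 for 1000 ug/m3 and 0.34 for 200 ug/m3 at day 1, 0.13 and 0.21 at day 7, and 0.54 and 0.42 at day 27, with the same SD of 0.31, so that 200 ug/m3 at day 1 and both doses at day 27 exceeded 1 SD and 1000 ug/m3 at day 1 did not. In that form the 1000 ug/m3 lungs of day 27, at 0.11 to 0.82, did not overlap the air H lungs, at -0.42 to 0.01, while the other 5 pairs did. Of the adventitial genes left in this form, Fmod averaged 17.4 CPM in these 1000 ug/m3 lungs and 35.4 CPM in the air H lungs. Pi16 (29.5 against 22.5 CPM) and Dcn (96 against 84.9 CPM) went the other way. The alveolar genes left, Tcf21 and Wnt2, were higher by value, and a score without Fmod was not computed. The sign at day 1 was opposite for the doses, as it was for Fmod, which is 1 of the 4 adventitial genes in the score.

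**Figure D3:**
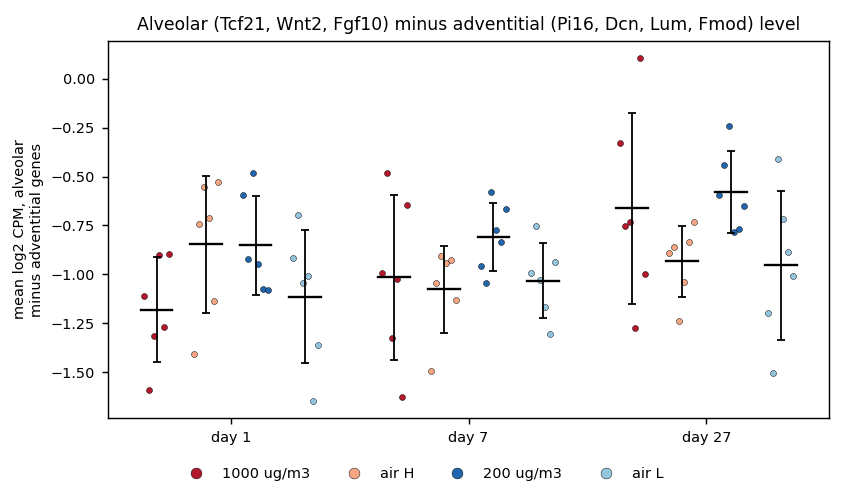
Alveolar minus adventitial level (difference of mean log2 CPM) in each lung by group and day. Points are animals, bars are the mean and SD of 6 animals; group means lie between -1.18 and -0.58, and with all 7 genes in the score every pair of exposed and air groups overlaps, while without Fgf10 and Lum the 1000 ug/m3 and air H lungs of day 27 do not.

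Between the air sets, 3 members differed at day 27, and 1 at day 7. These differences are between lungs that breathed only filtered air. At day 27 Pdgfrb ranged from 213 to 227 CPM with a median of 221 in air H lungs, and from 159 to 193 CPM with a median of 172 in air L lungs, without overlap, which is so for 8.11% of all genes. It was higher in air H lungs by 0.34 on the log2 scale (SE 0.06, edgeR adjusted p = 0.000881). Fmod ranged from 23.6 to 57.9 CPM with a median of 34.5 in air H lungs, and from 13.6 to 31.7 CPM with a median of 21.4 in air L lungs, and was higher by 0.71 (SE 0.20, adjusted p = 0.0182). Dcn ranged from 70.1 to 98.7 CPM with a median of 85.6 in air H lungs, and from 87.3 to 157 CPM with a median of 114 in air L lungs, with a log2 fold change of -0.53 (SE 0.16, adjusted p = 0.0337). So 2 of 9 members were higher and 1 was lower at day 27, where 14% of all 14761 genes were called, 8.92% as higher and 5.11% as lower. Pdgfrb and Fmod were called in all 24 fits that left out 1 library. The call of Fmod was lost when only the 12 libraries of the 2 air groups were fitted (adjusted p = 0.0631) and when all 72 were (0.0611), and that of Dcn without a filter on low counts (0.0602). Dcn was called in 19 of them and not without animals 017, 020 or 041 of air H or 081 or 083 of air L, where its adjusted p lay between 0.0621 and 0.0862.

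At day 7 Fmod was the member called. It ranged from 7.93 to 36.9 CPM with a median of 12.2 in air H lungs, and from 17.4 to 61.2 CPM with a median of 33.9 in air L lungs, and it was lower in air H lungs (log2 fold change -1, SE 0.36, edgeR adjusted p = 0.0451). Of all 14331 genes 25.5% were called there (10.3% higher, 15.2% lower), so 1 of 9 members is below the share of all genes. At an unadjusted p under 0.05 the members counted 1, where 35.8% of all genes had such a p. The call was kept in 10 of 24 fits that left out 1 library, with log2 fold changes of -1.31 to -0.79 and adjusted p of 0.00772 to 0.126. It was lost without animals 010, 011, 012 or 034 of air H, 013, 014, 015, 016 or 038 of 1000 ug/m3, 065, 066, 068 or 069 of air L, or 075 of 200 ug/m3. Fmod thus had a negative air H minus air L difference at days 1 and 7 and a positive one at day 27, where the difference between days was not tested. At day 1, 0 of 8 members were called and 3 had an unadjusted p under 0.05, where 1.68% of genes were called (0.829% higher, 0.853% lower) and 19.8% had such a p. DESeq2 and limma-voom each called 1, Fmod, where they called 3.21% and 1.6% of all genes.

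Among exposed lungs set directly against each other, Pdgfra was the only member called. All 1000 ug/m3 lungs are of set H and all 200 ug/m3 lungs of set L, so dose and set cannot be told apart here. At day 7 Pdgfra ranged from 195 to 268 CPM with a median of 226 in 1000 ug/m3 lungs, and from 203 to 312 CPM with a median of 264 in 200 ug/m3 lungs. It was lower in 1000 ug/m3 lungs by a log2 fold change of -0.26 (SE 0.09, edgeR adjusted p = 0.0302), where 27.9% of all genes were called and 1 of 9 members was. In air lungs of day 7 Pdgfra averaged 241 CPM in set H and 265 CPM in set L. For Pdgfra the effect of 1000 minus that of 200 ug/m3 was not called at day 7. It lay between -0.19 and -0.07 over the 24 fits that left out 1 library. The exposed groups overlapped, and 5 of 6 animals of 1000 ug/m3 lay below the mean of the 200 ug/m3 lungs. The exception was the shallow animal 037, at 268 CPM on 31 counts. The mean of the 1000 ug/m3 lungs was 225 CPM, and 217 CPM without it. Without animals 015 or 038 of 1000 ug/m3 or 073, 076 or 078 of 200 ug/m3 the adjusted p of the direct comparison lay between 0.0540 and 0.105. The call was also lost with the series of animal numbers as a block (-0.24, adjusted p = 0.0548), without scaling factors (-0.22, 0.0577) and with only the 12 libraries of these groups (-0.26, 0.0601). At days 1 and 27, 0 of 8 and 0 of 9 members were called by edgeR, where 0% and 0% of genes were, with 2 and 1 members at an unadjusted p under 0.05, as 12.5% and 7.36% of genes had. DESeq2 called 1 (Fmod) at day 1, where it called 0.146% of genes, and 0 at day 27, where it called 0.0135%.

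Over the days in air lungs, the receptor genes moved in opposite directions on average, for Pdgfrb through the air L lungs by value. Averaged over both air sets, Pdgfra was higher at day 27 than at day 7 by 0.34 on the log2 scale (SE 0.06, edgeR adjusted p = 3.74e-05), and higher than at day 1 by 0.30 (SE 0.06, adjusted p = 4.8e-05). Its 4 group means of day 27, in exposed and air lungs, lay between 311 and 325 CPM, and the next highest mean was 273 CPM in air H lungs of day 1. That gap of 38.1 CPM was larger than the SD within either neighbouring group. Pdgfrb was lower at day 27 than at day 7 (-0.22, SE 0.05, adjusted p = 0.00511) and than at day 1 (-0.21, SE 0.06, adjusted p = 0.00306). Its air means at day 27 were 220 CPM in the H set and 173 CPM in the L set, and those at day 7 were 221 and 233 CPM. Those at day 1 were 225 and 226 CPM, so by value Pdgfrb was lower at day 27 in air L lungs and nearly level in air H lungs. Whether the sets differed in this change of Pdgfrb was not tested.

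Tcf21 and Fmod were lower at day 7 than at day 1, by log2 fold changes of -0.44 (SE 0.10, edgeR adjusted p = 0.000202) and -0.84 (SE 0.21, adjusted p = 0.000965). At day 27 they were also lower than at day 1, at -0.24 (SE 0.10, adjusted p = 0.045) and -0.72 (SE 0.20, adjusted p = 0.00422). For Fmod these averages join unlike sets. Its means at day 27 were 35.4 CPM in air H and 21.6 CPM in air L lungs, those at day 7 were 17.9 and 36.1 CPM, and those at day 1 were 34.1 and 61.9 CPM, so by value air L was lower at day 27 than at day 1 and air H was not. Whether the sets differed in this was not tested. Tcf21 averaged 91.8 CPM in air H and 115 CPM in air L lungs at day 27, and 109 and 134 CPM at day 1. The call for Tcf21 at day 27 was lost without the 3 shallow libraries (adjusted p = 0.0543), and over the alternatives its adjusted p reached 0.15. Lum was lower at day 27 than at day 7 (-0.36, SE 0.10, adjusted p = 0.0148), and its 4 group means of day 27, 14.4 to 17.5 CPM, were the lowest of the 12, although the gap of 1.84 CPM to the next was smaller than the SD within its group. In all, 0 members were higher and 2 lower from day 1 to day 7, 1 higher and 2 lower from day 7 to day 27, and 1 higher and 3 lower from day 1 to day 27. Of all 14956 genes, 33.2%, 9.39% and 31.8% were called in these 3 contrasts. The libraries of day 1 were all shallower than those of the later days apart from the 3 shallow ones, and day and depth cannot be told apart there.

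**Figure D4:**
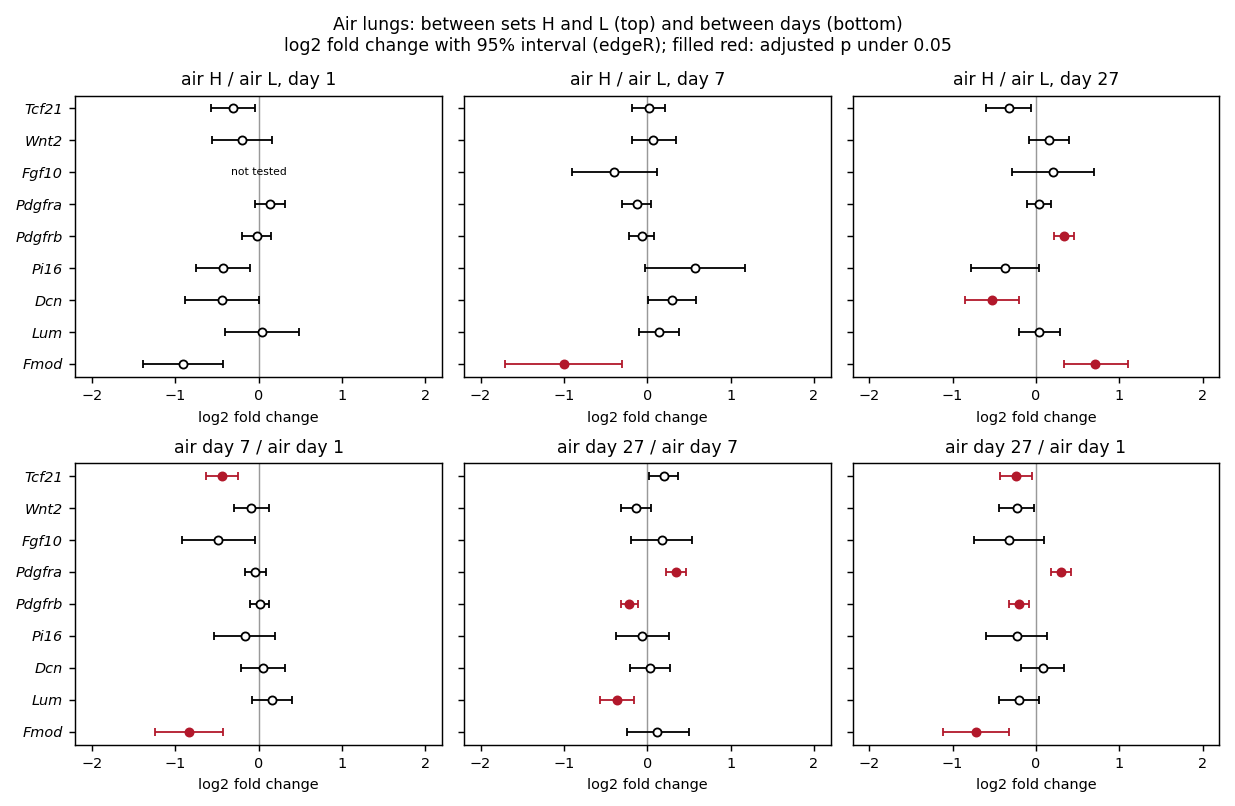
Log2 fold change of each gene between air sets H and L by day (top) and between days in air lungs (bottom), with 95% intervals from edgeR. Filled red points have an adjusted p under 0.05: Fmod at day 7, Pdgfrb, Dcn and Fmod at day 27 between sets, and Tcf21, Fmod, Pdgfra, Pdgfrb and Lum between days.

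The genes known to work with these members were read in the same fits. Of the other small leucine-rich proteoglycans, 8 of 9 listed have a row and 2 passed the filter in the fits of single days. In air H lungs of day 27 both were higher, as Fmod was: Prelp, the neighbour of Fmod, by 0.57 (SE 0.10, edgeR adjusted p = 0.000645) and Bgn, the gene of biglycan, by 0.58 (SE 0.16, adjusted p = 0.0169), where 8.92% of all genes were called as higher. Prelp averaged 314 CPM in air H lungs and 211 CPM in air L lungs. At day 7 both were lower in air H lungs, again as Fmod was, at -0.45 (SE 0.06, adjusted p = 2.95e-06) and -0.37 (SE 0.10, adjusted p = 0.0069), where 15.2% of all genes were called as lower. At day 1 they had log2 fold changes with a median of 0.06 and 0 were called, while Fmod was at -0.91.

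Of the ligands of the PDGF receptors, Pdgfb was lower in air H lungs of day 7 (-1.10, SE 0.10, edgeR adjusted p = 6.81e-10) and higher in those of day 27 (0.70, SE 0.14, adjusted p = 0.00276), and it was the only one of 3 and of 4 tested ligands called. Of 17 tested partners and targets of FGF10, WNT2 and nephronectin, 1 was higher and 9 were lower in air H lungs of day 7, with a median of -0.28, and 7 were higher and 0 lower in those of day 27, with a median of 0.29. Of all genes, 10.3% were called as higher and 15.2% as lower at day 7, and 8.92% and 5.11% at day 27. The largest at day 7 were the FGF feedback inhibitors Spry4 (-1.66, SE 0.15) and Spry2 (-1.53, SE 0.12), the ligand gene Fgf1 (-1.51, SE 0.08) and the receptor gene Fgfr1 (-0.97, SE 0.08). At day 27 they were Spry2 (0.90, SE 0.13), Spry4 (0.84, SE 0.17), the WNT receptor gene Fzd4 (0.70, SE 0.12) and Fgfr1 (0.67, SE 0.11). The ligand genes themselves did not pass: Fgf10 was -0.40 (SE 0.26) at day 7 and 0.20 (SE 0.25) at day 27, and Wnt2 was 0.07 (SE 0.14) and 0.16 (SE 0.12).

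Of 14 tested other alveolar fibroblast genes, 1 was higher and 4 lower in air H lungs of day 7, and 4 were higher and 0 lower in those of day 27, with medians of 0.02 and 0.18. Of all genes 25.5% were called at day 7 (10.3% higher, 15.2% lower) and 14% at day 27 (8.92% higher, 5.11% lower). Tbx4, a transcription factor gene of lung mesenchyme, was lower at day 7 (-0.47, SE 0.07, edgeR adjusted p = 2.5e-06) and higher at day 27 (0.48, SE 0.09, adjusted p = 0.00148). Of 11 tested other adventitial genes, 2 were higher at day 7 and 1 was higher and 1 lower at day 27, with medians of 0.07 and -0.12, so the 2 of 11 called on each day lay below the share of all genes at day 7 and near it at day 27. Dpt, the gene of dermatopontin, was higher at day 7 (0.49, SE 0.17, adjusted p = 0.0333) and lower at day 27 (-0.48, SE 0.15, adjusted p = 0.035). In the 6 exposed comparisons 0 genes of these lists were called, and the list medians lay between -0.04 and 0.13 for the other alveolar genes and between -0.06 and 0.17 for the other adventitial genes. In the same fits 3 of 5 ciliated and 3 of 5 club cell markers were lower in air H lungs of day 27, against 5.11% of all genes, with medians of -0.42 and -0.56, and the ciliated markers summed to 372 to 444 CPM in air H lungs and to 455 to 597 CPM in air L lungs. Whether this difference in airway markers bears on Dcn was not tested.

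From day 7 to day 27 in air lungs, 6 of 10 tested genes of activated fibroblasts were lower and 0 higher, with a median log2 fold change of -0.28 where all genes had 0.0034. Of all genes 9.39% were called there, 4.97% as higher and 4.42% as lower. Col1a1 and Col3a1, collagen genes, were lower, with log2 fold changes of -0.80 (SE 0.17, edgeR adjusted p = 0.00095) and -0.65 (SE 0.06, adjusted p = 7.46e-12). Of the 14 other alveolar fibroblast genes 4 were lower and 0 higher, among them Itga8 (-0.22, SE 0.05, adjusted p = 0.00404), the gene of the integrin chain that binds nephronectin. Of 9 pericyte genes 1 was lower, Cox4i2 (-0.49, SE 0.10, adjusted p = 0.000541). Pdgfra, which rose between these days, thus moved against the direction of most called genes of these lists.

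Within groups, the members of a class moved together little. Log2 CPM was centred on each group mean over the 69 libraries of at least 500000 counts, which leaves out Fgf10 for its low level, and 116 relations were computed. Among 28 pairs of members Pearson's r ran from -0.25 to 0.35, and 1 pair passed a permutation test within groups after adjustment: Dcn with Pi16 (r = 0.31, adjusted p = 0.0473; Spearman's rho = 0.33, adjusted p = 0.0569). Its r was 0.28, 0.20 and 0.59 within days 1, 7 and 27, and 0.35 without the 2 farthest libraries. The highest r was that of Pdgfrb with Pdgfra (0.35, rho = 0.33, permutation adjusted p = 0.0796 and 0.079). The alveolar pair of Tcf21 with Wnt2 had r = 0.13, and Fmod had r = 0.15 with Lum, -0.08 with Dcn and -0.18 with Pi16.

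The markers of other cell types moved more closely with some members. Of 88 relations between a member and a marker list, 12 passed. A list here is the mean of its genes that had a mean log2 CPM of at least 2. That left 3 genes for cardiac muscle, 4 for mesothelial and 5 each for ciliated and club cell markers. Pi16 had r = 0.71 with the club cell list (rho = 0.64, adjusted permutation p = 0.000232 and 0.000193, where the raw p of 1e-05 is the smallest that 100000 permutations can give). It was 0.54, 0.78 and 0.70 within days 1, 7 and 27, and 0.63 without the 2 farthest libraries. Pi16 had r = 0.68 with ciliated (rho = 0.63), 0.58 with cardiac muscle (rho = 0.60) and -0.54 with mesothelial markers (rho = -0.62), with 0.60, 0.51 and -0.49 without the 2 farthest libraries and adjusted permutation p of 0.000232, 0.000232 and 0.000773. Dcn had r = 0.47 with the cardiac list (rho = 0.52, adjusted permutation p = 0.000232, 0.49 without the 2 farthest). Dcn had r = 0.36 with the club cell list (rho = 0.37, adjusted permutation p = 0.0205, 0.34 without the 2 farthest), and Pi16 had 0.35 with smooth muscle (rho = 0.40, adjusted permutation p = 0.0355, 0.38 without them). Lungs with more RNA of airway markers and of cardiac muscle genes, which rodent pulmonary veins also carry, thus had more Pi16.

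Pdgfrb moved with vessel genes. Its r with the endothelial list was 0.64 (rho = 0.65, adjusted permutation p = 0.000232, 0.63 without the 2 farthest libraries, and 0.68, 0.58 and 0.67 within the days) and with the pericyte list 0.47 (rho = 0.41, adjusted permutation p = 0.00365, 0.43 without the 2 farthest libraries). Pdgfra had r = 0.43 with the endothelial list, 0.42 with smooth muscle and -0.42 with type II pneumocyte markers (adjusted permutation p = 0.0205 each, rho = 0.40, 0.37 and -0.42, and 0.33, 0.32 and -0.38 without the 2 farthest libraries). For Tcf21, Wnt2, Lum and Fmod no relation with any of the 11 lists passed, and the highest of Fmod was r = 0.38 with the mesothelial list (rho = 0.37, adjusted permutation p = 0.0643 and 0.0569, 0.37 without the 2 farthest libraries).

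**Figure D5:**
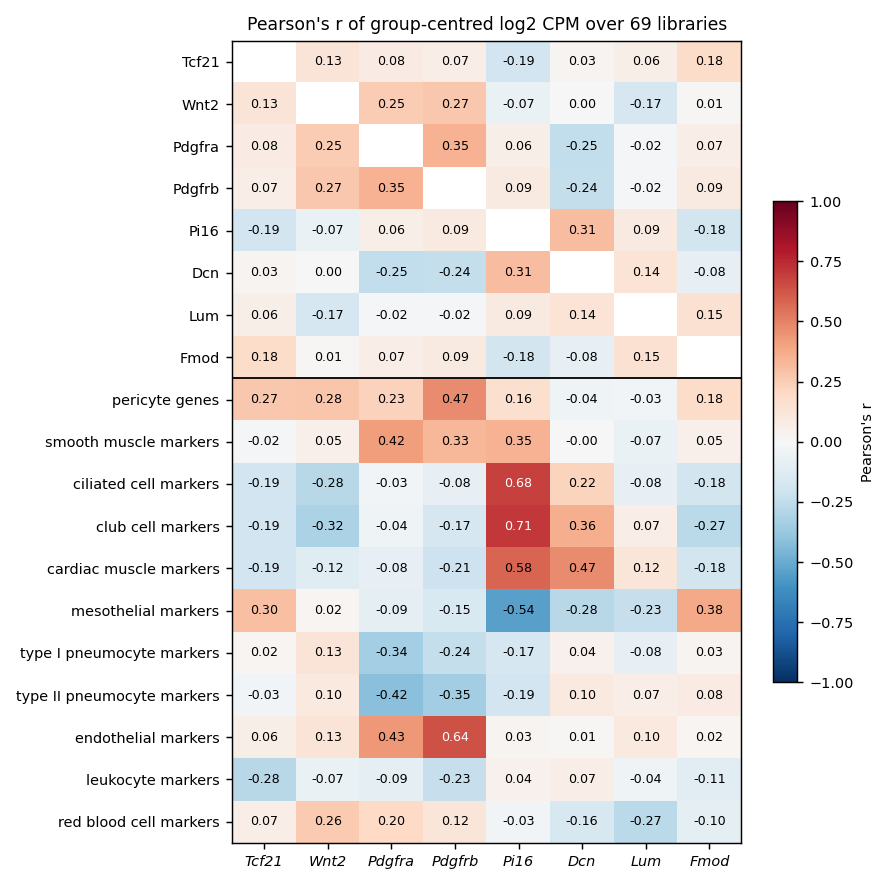
Pearson's r between 8 members (columns) and members or marker lists (rows), of log2 CPM centred on the group mean, over 69 libraries. Pi16 stands out with 0.71 for club and 0.68 for ciliated cell markers, Pdgfrb with 0.64 for endothelial markers, and no pair of members exceeds 0.35.

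The genes most like a member were ranked by r of the same centred values among 11681 genes over the 69 libraries, as a description. For Tcf21 they were Gpr146 (0.64), Gfod1 (0.62) and Cdc42ep4 (0.59). For Pdgfrb they were Pdzd2 (0.72), Bgn (0.71) and Pcdhgc3 (0.68), and for Dcn they were Pak1ip1 (0.53), Klhdc7a (0.49) and Myh6 (0.48). Pi16 and Fmod were added after their values were seen. Pi16 was followed by Bpifb1 (0.80), Adam8 (0.77) and Dnah9 (0.75), of which Dnah9 encodes a motor protein of cilia, and Fmod by Sesn3 (0.56), Abcc4 (0.48) and Mnda (0.43). All share the libraries and their depth.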

How the data were processed

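Raw counts per gene symbol for 72 libraries were deposited by the authors in 1 table. Tools listed in the submitters' processing notes, without their roles, are HISAT2 2.1.0, HTSeq 0.6.1, bcl2fastq 2.19, SAMtools 1.8 and Trimmomatic 0.35. The genome build listed there is Rnor_6.0. The kit was stranded and depleted ribosomal RNA, per the labels' protocols. Annotation release and strand mode of the counting were not given in the sources used here, so reads of overlapping or antisense genes cannot be assigned with certainty. Groups came from titles and characteristics, which name 1 animal per library.

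Counts were tested in R 4.3.3 with edgeR 4.0.16: TMM, filterByExpr by group, the robust quasi-likelihood test, and Benjamini-Hochberg adjustment at 0.05 over all genes tested. The 24 libraries of a day entered 1 fit. Contrasts between days and averages used all 72. DESeq2 1.42.0 and limma-voom (limma 3.58.1), other scaling and filters, single left-out libraries, and fits without the 3 libraries under 500000 counts served as alternatives. Mean log2 values used a prior count of 2. Relations used 100000 permutations within groups. Limits from 0 counts cover counting error only. Intervals of log2 fold changes come from the edgeR fit and also cover scatter between animals. The fit was checked on simulated counts. The members and gene lists were chosen with earlier results of these data known. All members are named, from each list up to 4 called genes of largest change are named, and from Tcf21, Dcn and Pdgfrb the 3 most similar genes. RefSeq tables on GRCr8 gave start regions for 8 of the 10 listed genes and neighbours, by symbol.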

Additional observations from a re-analysis of the deposited data

Results flagged for a closer look

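Of 108 sets of 6 values (9 genes in 12 groups), 10 held an animal whose gap to its nearest neighbour was wide for the range of its group by Dixon's test, where chance gives about 1 in 20 sets (5%). In Fmod there were 4. Animal 029 (1000 ug/m3, day 1) had 25.7 CPM, and the nearest animal of its group had 62.8 CPM. Animals 037 (day 7) and 045 (day 27) of the 1000 ug/m3 groups had 34.6 and 31.2 CPM, which rest on 4 and 5 counts. Animal 020 of air H at day 27 had 57.9 CPM on 271 counts, with the nearest at 36.4 CPM. Animal 020 was also highest for Pi16 in its group, at 26.9 CPM with the nearest at 22.3 CPM. In Pi16, animal 073 (200 ug/m3, day 7) had 53.1 CPM, with the nearest at 29.3 CPM. Pdgfrb was lowest in the shallow animal 037 of the 1000 ug/m3 group at day 7, at 130 CPM on 15 counts. Wnt2 was 18.4 CPM in animal 067 of air L at day 7, Fgf10 was 4.54 CPM on 17 counts in animal 033 of air H at day 7, and Lum was 23.5 CPM in animal 083 of air L at day 27. No cause was tested.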

How the results depend on the processing

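Of the values of single members recomputed under alternatives, 2341 stayed on their side of the threshold, 37 lost a call and 23 gained one. None reversed a call, while a change of sign in values that were not called was not counted. The count of members called became 1 (Fmod) in place of 0 in these settings: 200 ug/m3 at day 1 with DESeq2 and with the 12 libraries of the groups compared (adjusted p = 0.0181), 1000 ug/m3 at day 27 with DESeq2 (0.0028), the average of 200 ug/m3 with DESeq2 (0.0289), the difference between the doses' effects at day 1 without scaling (0.048), with DESeq2 (1.72e-05) and with limma-voom (0.00452), air H minus air L at day 1 with DESeq2, with limma-voom and with 12 libraries, the direct comparison of the doses at day 1 with DESeq2, and the effect of 1000 ug/m3 at day 27 minus day 1 with DESeq2 and limma-voom. It became 0 in place of 1 for air H minus air L at day 7 without a filter and with 12 libraries, and for 1000 minus 200 ug/m3 lungs at day 7 without scaling, with 12 libraries and with the series of animal numbers as a block. Leaving out single libraries moved the count between 0 and 1 for the difference between the doses' effects at day 1, for air H minus air L at days 1 and 7, and for the direct comparison of the doses at days 1 and 7. For 200 ug/m3 at day 1 it stayed at 0 in all 24 such fits. For air H minus air L at day 27 the count of 3 was 2 without a filter. Fmod lost its call there with 12 libraries (0.0631) and with all 72 in 1 fit (0.0611). The adjusted p of Fmod over all alternatives ran from 0.0028 to 0.449 for 1000 ug/m3 at day 27, from 0.0289 to 0.117 for the average of 200 ug/m3, from 1.72e-05 to 0.254 for the difference between doses at day 1, and from 0.00763 to 0.0631 for air H minus air L at day 27. The cause was not tested. Over all genes, air H minus air L at day 1 called 207 genes, against 129 with a filter of 1 CPM, 395 with DESeq2, 456 with the block and 1016 with 72 libraries. Without scaling, 3299 genes were higher and 2169 lower from day 1 to day 7, against 2341 and 2631. From day 1 to day 27 they were 3189 and 2024, against 2223 and 2528. The average of 200 ug/m3 called 6 genes, against 1 under 6 alternatives and 13 with DESeq2. The direct comparison of the doses at day 1 called 0 genes, against 18 with DESeq2 and 150 with 72 libraries, and the difference between the doses' effects at day 27 called 0, against 21 with DESeq2 and 22 with 72 libraries. No paired analysis was possible because animal numbers differ between all groups. Depth limits Fgf10, Wnt2 and the shallow libraries most.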
